A study of Mus musculus with 6 samples.

Results

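The 10 genes described here encode proteins that join liver cells to their neighbours. They are the cadherin genes Cdh1 and Cdh2, the claudin genes Cldn1, Cldn2, Cldn3 and Cldn14, the connexin genes Gjb1 and Gjb2, the scaffold gene Tjp1 and the occludin gene Ocln. They were taken by name, by a rule that holds no measured value, from a deposited table of 54446 Ensembl genes. All 10 were found, and all 10 were among the 15368 genes with enough counts to be tested.

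The table holds 6 poly-A RNA libraries of mouse liver cells, 2 each from weeks 0, 2 and 7 of a treatment that the series title gives as MET/CAT together with SB transposase, an enzyme that moves DNA lying between its recognition ends. The labels expand neither MET/CAT nor SB, state no sex, age, dose or promoter, and do not say whether week 0 was before treatment. The strain label reads mixed FVB/N and C57BL/6 for week 0 sample 1 and C57BL/8 for week 0 sample 2, C57BL/10 and C57BL/12 for the week 2 libraries, and C57BL/14 and C57BL/16 for the week 7 libraries, so what background the later libraries have is unsure. No label says that the 2 libraries of a week came from separate mice, so p-values measure the spread between these libraries, which may be technical.

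Library totals ran from 49353453 to 58434358 deposited counts. Hepatocyte markers (Alb, Apoa1 and 6 others) summed to between 90376 and 128330 CPM (a count as a share of its library, after scaling between libraries by the TMM method) in every library, so the labelled tissue was present throughout. Xist, the RNA of the inactive X chromosome in female cells, had 216 and 221 CPM at week 2 and at most 0.311 CPM elsewhere, and Ddx3y, a gene of the Y chromosome, had 0 counts at week 2 alone. Female tissue is thus the reading for week 2 and male tissue for weeks 0 and 7. Weeks 0 and 7 are alike in this respect, whereas in both comparisons with week 2 the effects of week and sex cannot be told apart. No untreated libraries of weeks 2 or 7 were analysed here, so treatment, age and strain cannot be told apart.

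Hepatocytes are held together by several kinds of contact. At adherens junctions cadherins bind each other across the gap between cells and are anchored to actin through catenins, among them beta-catenin, which also carries Wnt signals to the nucleus. Tight junctions, built of claudins and occludin on scaffolds such as ZO-1, seal the bile canaliculus, the channel between hepatocytes into which bile is secreted. Gap junctions, made of connexins, let ions and small molecules pass from cell to cell. Some of these proteins are unevenly spread along the path from portal to central vein: E-cadherin and connexin 26 are known mainly from periportal hepatocytes, and claudin-2 is stronger towards the central vein.

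Of the 5 genes that differed between week 7 and week 0, 3 had a start site entry among RefSeq promoters (build GRCm38.p6) that could be shown. For each, the 250 bases before its most upstream annotated start are given 5′ to 3′ on the gene's strand, because they are the stretches whose genes rose (Cldn14) or fell (Gjb2 and Ocln). Capitals mark matches, on either strand, to any of 4 short motifs. The motif of TCF/LEF factors, the partners of beta-catenin, was searched as CTTTGAT. The E-box bound by Snail-type repressors was searched as CAGGTG. For the GC box, which Sp-family factors bind, the letters were GGGCGG. The TATA box was searched as TATAAA.
Cldn14, chr16:94008838-94009087, minus strand: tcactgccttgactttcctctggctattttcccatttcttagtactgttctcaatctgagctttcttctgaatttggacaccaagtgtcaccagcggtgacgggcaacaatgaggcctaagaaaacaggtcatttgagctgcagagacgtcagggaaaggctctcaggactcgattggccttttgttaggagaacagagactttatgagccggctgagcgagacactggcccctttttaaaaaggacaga
Gjb2, chr14:57104703-57104952, minus strand: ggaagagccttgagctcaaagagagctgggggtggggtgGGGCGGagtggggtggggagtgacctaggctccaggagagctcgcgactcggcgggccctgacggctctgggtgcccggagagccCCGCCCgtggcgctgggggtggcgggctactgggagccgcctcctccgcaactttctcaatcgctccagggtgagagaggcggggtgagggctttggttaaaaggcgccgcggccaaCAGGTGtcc
Ocln, chr13:100552719-100552968, minus strand: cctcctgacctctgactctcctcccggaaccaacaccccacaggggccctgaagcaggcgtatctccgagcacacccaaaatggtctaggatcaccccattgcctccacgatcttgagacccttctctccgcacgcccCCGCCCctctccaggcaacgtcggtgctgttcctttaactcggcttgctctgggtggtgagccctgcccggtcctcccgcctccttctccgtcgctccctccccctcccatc
The Gjb2 stretch held a GC box match on each strand and a Snail-type E-box that ended 4 bases before the start. The Ocln stretch held 1 GC box match, and the Cldn14 stretch held none of the 4 motifs. GC content was 69.2% for Gjb2, 64% for Ocln and 47.6% for Cldn14. In all, 14 entries of 8 members were used, and none was used for the cadherin genes Cdh1 and Cdh2. None of the 14 windows held CTTTGAT, which was present in 3.21% of the 32851 windows of this length. Windows with CAGGTG made up 17.2%, with GGGCGG 32.7% and with TATAAA 12.4% of that total. Among the members CAGGTG was found before Gjb2, before 1 of the 3 starts of Cldn14, before 1 of the 4 starts of Gjb1 and, with 2 matches, before 1 of the 2 starts of Ocln. GGGCGG was found before Cldn1, Cldn3, Gjb2, Tjp1, both starts of Ocln and 1 start of Gjb1. TATAAA was found before Cldn2 and before 1 of the 4 starts of Gjb1. A match is a run of letters, and binding was not measured.

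Levels of different genes are compared per kilobase (kb) of exon, with exon lengths from GENCODE M21. The connexin genes stood highest. Gjb1, which encodes connexin 32, the main gap junction protein of hepatocytes, had 412 ± 7.66 CPM per kb at week 0 (SD, n = 2), more than 99.2% of tested genes when averaged over all libraries. Gjb2, which encodes connexin 26, had 126 ± 4.71 and the claudin gene Cldn3 had 69.8 ± 2.74 CPM per kb. The other members were far lower. Cldn2 had 15.0 ± 0.273, Cdh2 7.61 ± 0.290, Cldn1 6.94 ± 0.177 and Cldn14 6.10 ± 0.622 CPM per kb. Cdh1 (4.66 ± 0.507), Ocln (4.21 ± 0.249) and Tjp1 (3.76 ± 0.226) closed the order. Of the neighbours in this order, only Cdh1 and Ocln overlapped between libraries at week 0. At week 2 only Cdh2 and Cldn1 did, and at week 7 no neighbours did. By week 7 Cdh1 stood at 8.74 ± 0.0642 CPM per kb and had passed Cldn1, at 5.88 ± 0.176, and Ocln had become the lowest, at 2.84 ± 0.133.

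**Figure D1:**
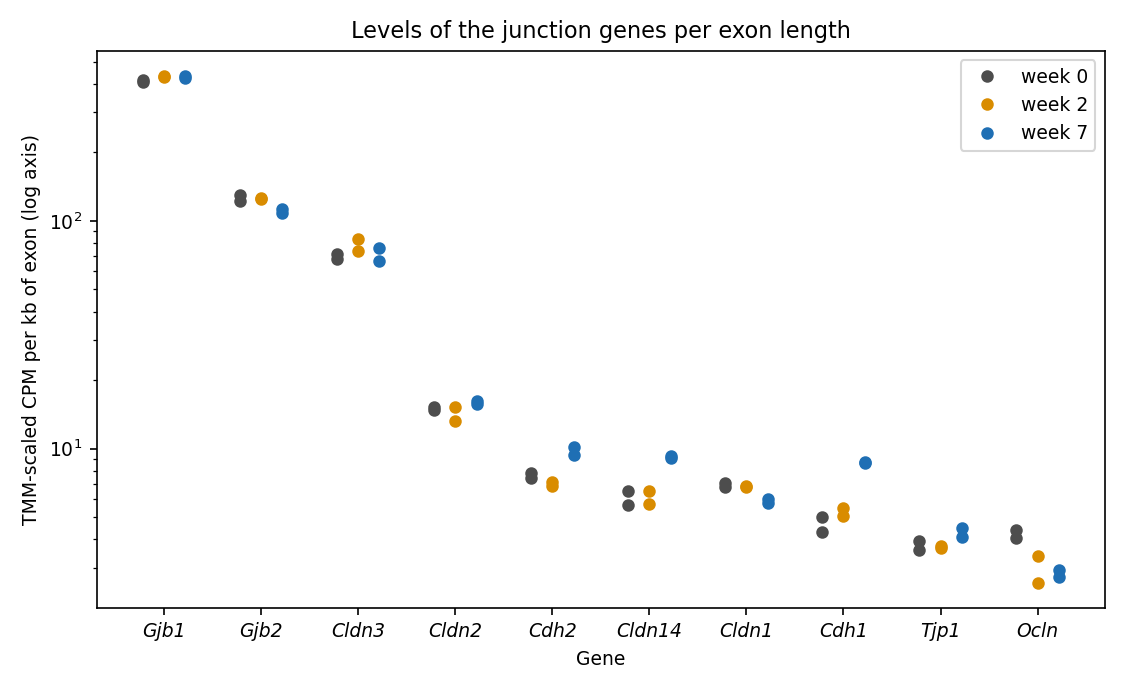
Level of each junction gene in every library, in TMM-scaled CPM per kb of exon on a log axis, with 1 point per library coloured by week. Gjb1 stands near 412 CPM per kb and the lowest genes between 2.84 and 8.74, and Cdh1 passes Cldn1 and Ocln falls below Tjp1 between weeks 0 and 7.

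Both cadherin genes rose between week 0 and week 7, Cdh1 by 1.87-fold and Cdh2 by 1.28-fold, and so did the claudin gene Cldn14, by 1.51-fold. Gjb2 and Ocln fell, 1.14-fold and 1.48-fold. The remaining 5 genes were not called. A call is an adjusted p under 0.05 in edgeR's quasi-likelihood test with Benjamini-Hochberg adjustment over all 15368 genes, of which 13.8% were called in this comparison. By direction, 7.58% of tested genes were called higher and 6.23% lower. Restricted to the 7368 genes averaging 10 CPM or more, a level that every member passed, the share was 21.9%, 11.2% higher and 10.8% lower. The median size of the members' log2 fold changes was 0.21, against 0.28 over all tested genes, and their median was 0.07 against 0.00. All tested genes include those under 10 CPM, so these medians do not compare the members with genes of their level. The week 0 and week 7 libraries did not overlap for 9 of the 10 members, as for 56% of all tested genes, 28.2% higher and 27.8% lower. In bulk tissue fewer cells of a type and less RNA per cell cannot be told apart.

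**Figure D2:**
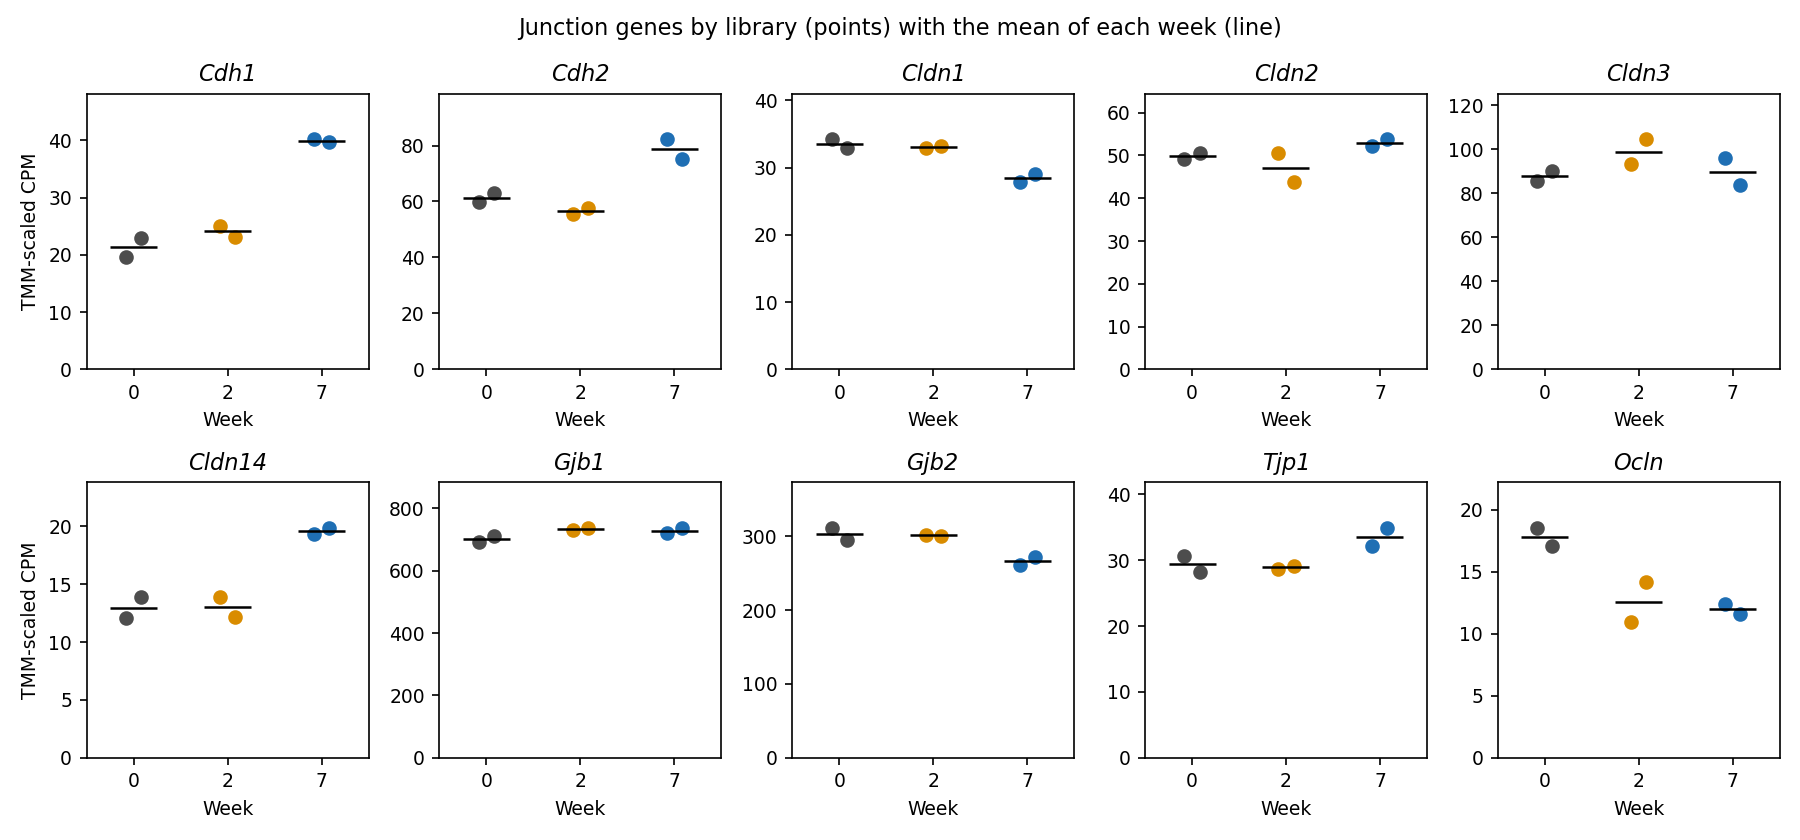
Each junction gene in TMM-scaled CPM (y axis from 0) by week, with 1 point per library and a line at the mean of the 2 libraries. Cdh1, Cdh2 and Cldn14 are highest in both week 7 libraries, Gjb2 is lowest there, and Ocln is highest in both week 0 libraries.

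Cdh1 (ENSMUSG00000000303, plus strand, chr8:106603351-106670246 in GENCODE M21 on GRCm38), which encodes E-cadherin, started from 19.7 and 22.97 CPM at week 0, stood at 25.1 and 23.1 in the libraries of week 2 and reached 40.2 and 39.8 by week 7. Both week 7 libraries lay well above the other 4, and those of week 2 lay just above those of week 0. From week 0 to week 7 the mean went from 21.3 ± 2.32 to 40.0 ± 0.293 CPM, a log2 fold change of 0.91 (SE 0.11, edgeR adjusted p = 0.000716). Week 7 also exceeded week 2, by 0.73 (SE 0.10, edgeR adjusted p = 0.00140), while week 2 against week 0 gave 0.18 with a 95% interval from -0.06 to 0.41 (edgeR adjusted p = 0.304). Cdh1 was the member with the largest change, and it was called at week 7 against week 0 in all 13 alternative analyses, each of the 6 single libraries left out included (edgeR or DESeq2 adjusted p of at most 0.00819).

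Cdh2 (ENSMUSG00000024304, chromosome 18), which encodes N-cadherin, the other classical cadherin of hepatocytes, gave 59.7 and 63.1 CPM at week 0, then 55.4 and 57.7 at week 2, and finally 82.2 and 75.4 at week 7. Those of week 7 were again the highest, and here those of week 2 were the lowest. Between weeks 0 and 7 the mean rose from 61.4 ± 2.34 to 78.8 ± 4.82 CPM (log2 fold change 0.36, SE 0.07, edgeR adjusted p = 0.0130). The call was lost without week 0 replicate 1 (log2 fold change 0.32, edgeR adjusted p = 0.0814) or week 7 replicate 1 (0.30, edgeR adjusted p = 0.0758). Against week 2 the rise was 0.48 (SE 0.07, edgeR adjusted p = 0.00211), and this call was kept in all 13 alternatives.

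The sum of both cadherin genes per length was 11.7 and 12.8 CPM per kb at week 0, 12.4 and 12.2 at week 2, then 19.0 and 18.0 at week 7. Cdh2 exceeded Cdh1 in each library, by a ratio of 1.72 and 1.56 at week 0, 1.25 and 1.42 at week 2, then 1.16 and 1.07 at week 7. The ratio was thus lower in both week 7 libraries than in any other. No test of the ratio was made.

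**Figure D3:**
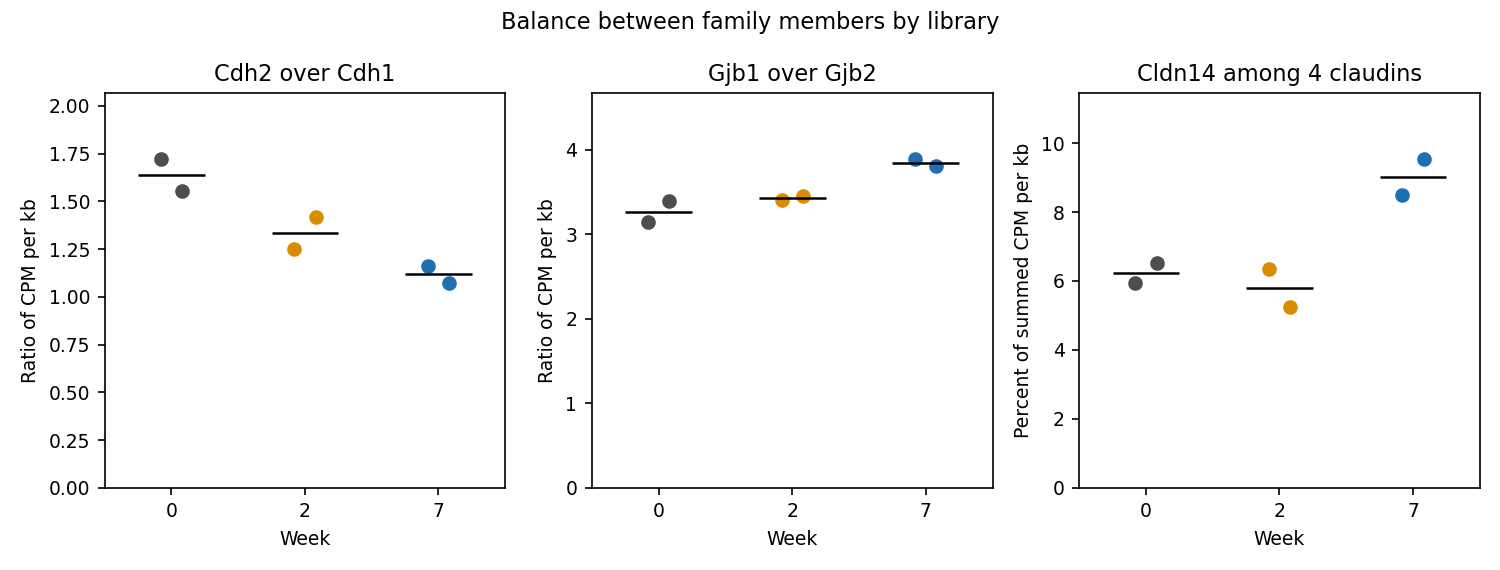
Ratios of levels per exon length within each family, by week, with 1 point per library and a line at the mean: Cdh2 over Cdh1, Gjb1 over Gjb2, and Cldn14 as a percentage of the 4 claudin genes summed. At week 7 the libraries lie at 1.07 and 1.16, 3.81 and 3.89, and 8.499% and 9.53%, beyond the range of the other 4 libraries in each panel.

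Cldn14 (ENSMUSG00000047109, minus strand, chr16:93919031-94008837), which encodes a claudin known from tight junctions of liver, kidney and the inner ear, had 12.0 and 13.9 CPM at week 0, 13.9 and 12.1 at week 2, then 19.3 and 19.9 at week 7. Weeks 0 and 2 overlapped, and both week 7 libraries lay above them. Its mean rose from 13.0 ± 1.32 to 19.6 ± 0.389 CPM from week 0 to week 7 (log2 fold change 0.59, SE 0.13, edgeR adjusted p = 0.0201), and week 7 exceeded week 2 by the same 0.59 (SE 0.13, edgeR adjusted p = 0.0148). Against week 0 the call was lost without week 0 replicate 1 (0.49, edgeR adjusted p = 0.116), week 7 replicate 1 (0.61, 0.0741) or week 7 replicate 2 (0.57, 0.0863). Against week 2 it was lost without week 2 replicate 2 (0.50, edgeR adjusted p = 0.0985), week 7 replicate 1 (0.61, 0.0565) or week 7 replicate 2 (0.57, 0.0706).

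The other 3 claudin genes were not called in any comparison. Cldn3 (ENSMUSG00000070473, plus strand, chr5:134986214-134987472), the claudin gene with the highest level here, had 85.4 and 90.3 CPM at week 0, 93.1 and 104 at week 2, then 95.9 and 83.5 at week 7. Weeks 0 and 7 overlapped, with a log2 difference of 0.03 (95% interval -0.16 to 0.22, edgeR adjusted p = 0.877). Of its exon bases 3.18% are shared with the antisense gene Wbscr25, from which an unstranded kit cannot tell it apart. Cldn2 (ENSMUSG00000047230, plus strand, chrX:139800828-139811386), a claudin that forms pores for cations and water, had 49.2 and 50.5, 50.5 and 43.8, and 52.2 and 53.7 CPM at weeks 0, 2 and 7. Its week 7 libraries were the highest by a narrow margin, and the difference from week 0 was 0.09 (interval -0.11 to 0.28, edgeR adjusted p = 0.583). Cldn1 (ENSMUSG00000022512, minus strand, chr16:26356642-26371841), a sealing claudin found in many epithelia, was the lowest at week 7, with 27.8 and 29.0 CPM against 34.2 and 33.0 at week 0 and 32.9 and 33.3 at week 2. Its difference of -0.24 at week 7 against week 0 had an interval from -0.43 to -0.05, with an edgeR p of 0.0196 unadjusted and an edgeR adjusted p = 0.10.

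Together the 4 claudin genes summed to 95.3 and 100.2 CPM per kb at week 0, to 102 and 109 in the week 2 libraries, then to 107 and 97.8 at week 7, so that their sum overlapped between weeks 0 and 7. Cldn3 made up 67.8% to 76.3% of that sum in every library. The share of Cldn14 was 5.93% and 6.52% at week 0, 6.35% and 5.25% at week 2, then 8.499% and 9.53% at week 7. That of Cldn1 was 7.41% and 6.80%, 6.64% and 6.33%, and 5.39% and 6.13%. Cldn14 thus stood below Cldn1 in each library of weeks 0 and 2 and above it in both of week 7. These shares are of the 4 members alone. Cldn12, outside the sum, had 13.9 ± 6.58 CPM per kb at week 0 and 16.4 ± 3.05 at week 7, and was not called.

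Ocln (ENSMUSG00000021638, minus strand, chr13:100496507-100552718), which encodes occludin, a membrane protein of tight junction strands, had 18.5 and 17.0 CPM at week 0, 10.9 and 14.2 at week 2, then 12.4 and 11.6 at week 7. Both week 0 libraries lay above the other 4, and weeks 2 and 7 overlapped. It fell from 17.8 ± 1.05 to 12.0 ± 0.561 CPM at week 7 (log2 fold change -0.57, SE 0.15, edgeR adjusted p = 0.0423). The difference of week 2 from week 0 was of similar size (-0.50, SE 0.15), but there week and sex cannot be told apart. It missed the threshold (edgeR adjusted p = 0.0540). It was called with no filter (edgeR adjusted p = 0.0371), with DESeq2 (adjusted p = 0.0344), with counts divided by 4 (edgeR adjusted p = 0.0369) and without week 2 replicate 2 (-0.70). The week 7 call was just inside the threshold. It was lost with total counts only (edgeR adjusted p = 0.0578) and without week 0 replicate 1 (-0.51, 0.171), week 0 replicate 2 (-0.63, 0.0905), week 7 replicate 1 (-0.62, 0.1199) or week 7 replicate 2 (-0.52, 0.166). Ocln had the fewest counts of the members, 593 in its lowest library, which gives a counting error of 8.21% if 4 deposited counts are worth 1 read pair.

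Tjp1 (ENSMUSG00000030516, minus strand, chr7:65296165-65527781) encodes ZO-1, the scaffold that ties claudins and occludin to actin. It had 30.7 and 28.2 CPM at week 0, 28.7 and 29.1 at week 2, then 32.1 and 34.9 at week 7. Those of week 7 were the highest, but the difference from week 0 was not called (0.19, interval -0.02 to 0.40, edgeR adjusted p = 0.235), nor was that from week 2 (0.21, interval 0.00 to 0.42, edgeR adjusted p = 0.153).

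The connexin genes had the deepest counts of the set, from 13920 in the lowest library of Gjb2 to 43732 in the highest of Gjb1. Their counting error was thus the smallest, but libraries differed by more than counting. At week 0 the log2 differences between replicates of 478 deeply counted genes had a robust SD of 0.052, against 0.026 from counting. Gjb2 (ENSMUSG00000046352, minus strand, chr14:57098600-57104702) had 311 and 295 CPM at week 0, 302 and 301 at week 2, then 261 and 272 at week 7. Those of week 7 were the lowest, and those of week 2 lay within the range of week 0. Its mean fell from 303 ± 11.3 to 267 ± 7.83 CPM (log2 fold change -0.18, SE 0.04, edgeR adjusted p = 0.0227) and differed from week 2 by as much (-0.18, edgeR adjusted p = 0.0205). The week 7 against week 0 call was lost with only the 4 libraries compared (edgeR adjusted p = 0.0516) and without week 0 replicate 1 (-0.15, 0.153) or week 7 replicate 1 (-0.15, 0.113). The call against week 2 was lost without week 2 replicate 1 (-0.17, edgeR adjusted p = 0.114), week 2 replicate 2 (-0.18, 0.0971) or week 7 replicate 1 (-0.15, 0.1005).

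Gjb1 (ENSMUSG00000047797, plus strand, chrX:101376378-101385629) had 693 and 712 CPM at week 0, 729 and 737 at week 2, then 721 and 736 at week 7. All 6 libraries lay within a narrow band, and the difference between weeks 7 and 0 was 0.05 with an interval from -0.02 to 0.12 (edgeR adjusted p = 0.342). Its ratio to Gjb2 per length was 3.14 and 3.40 at week 0, 3.41 and 3.46 at week 2, then 3.89 and 3.81 at week 7, highest in both week 7 libraries. The sum of both genes was 536 and 539.7 CPM per kb at week 0 and 531 and 545 at week 7, so the weeks overlapped.

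At week 2 against week 0 the member furthest from 0 was Ocln, at -0.50 on the log2 scale, and the other 9 lay between -0.12 and 0.18. None of the 10 was called by edgeR, 1 (Ocln) had an unadjusted p under 0.05, and DESeq2 called 1, again Ocln, while edgeR called 18.6% of all tested genes, 9.81% higher and 8.81% lower, and 28.4% of those averaging 10 CPM or more (13.2% higher, 15.3% lower). The libraries did not overlap for 5 members, against 60.2% of tested genes, 31.4% higher and 28.8% lower. The median size of the members' log2 differences was 0.07, against 0.32 over all tested genes, those under 10 CPM included. With libraries scaled by total counts only, all genes shifted by 0.09 in the median and Gjb1 was called higher (0.15, edgeR adjusted p = 0.0174). That setting split the calls over all genes into 2007 higher and 913 lower, against 1508 and 1354. Week 7 against week 2 called 4 members, Cdh1, Cdh2 and Cldn14 higher and Gjb2 lower, where 19.8% of all tested genes were called (10.1% higher, 9.73% lower), and 30.5% of those averaging 10 CPM or more (16.9% higher, 13.7% lower). The libraries did not overlap for 7 members, as for 61% of tested genes, 30.3% higher and 30.8% lower. Both comparisons share the libraries of week 2, and each shares a week with week 7 against week 0.

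**Figure D4:**
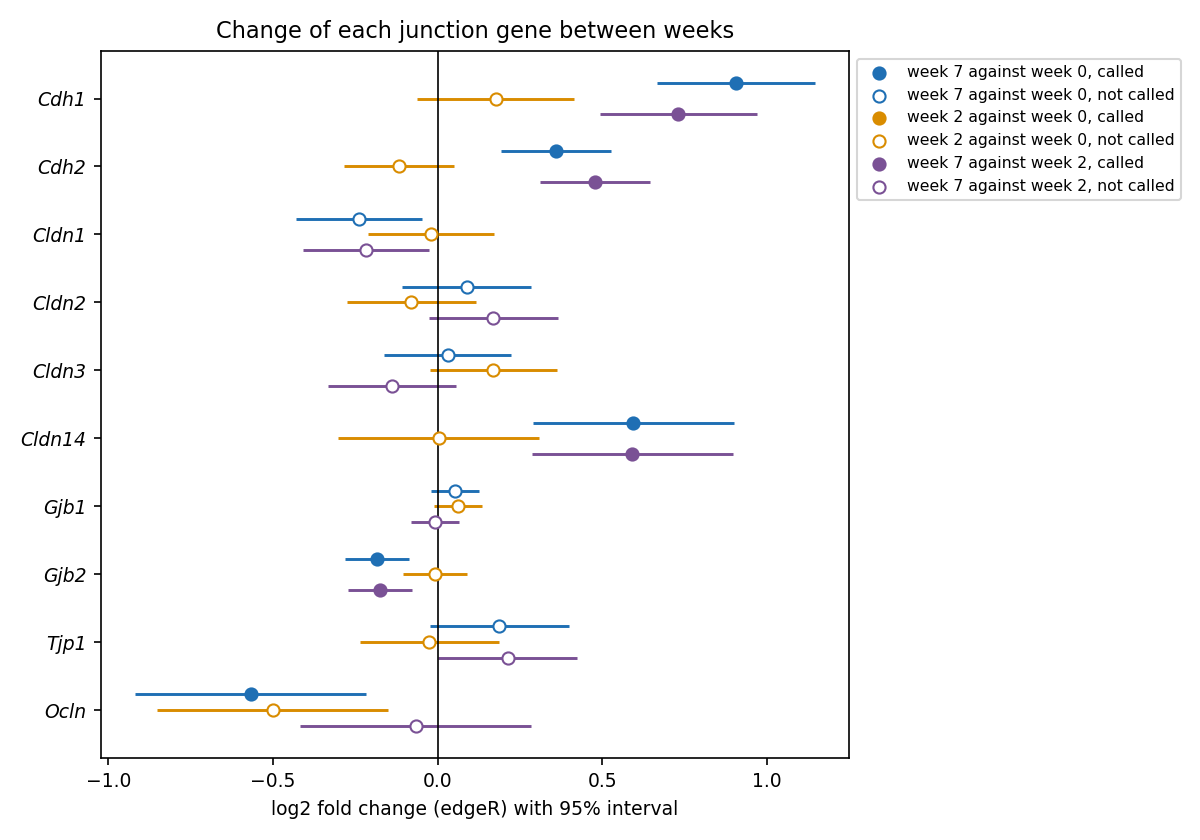
Log2 fold change of each junction gene from edgeR with its unadjusted 95% interval, for 3 pairs of weeks, where filled points were called at an adjusted p under 0.05. Cdh1, Cdh2 and Cldn14 lie to the right of 0 in both comparisons of week 7, at 0.36 to 0.91, and no point of week 2 against week 0 is filled.

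The other junction genes were followed through 7 lists with 123 genes, of which 88 were tested. At week 7 against week 0, 18 of these were called higher and 4 lower, or 25%. The share was 13.8% over all tested genes (7.58% higher, 6.23% lower). Over genes averaging 10 CPM or more it was 21.9% (11.2% higher, 10.8% lower). The median log2 fold change of these 88 genes was 0.11. Genes that work beside the cadherins moved in 1 direction where called. Of 18 catenin, nectin and other partner genes 7 rose and 0 fell, with a median of 0.17. Ctnnb1, which encodes beta-catenin, had 116 and 104 CPM at week 0 and 201 and 163 at week 7 (log2 fold change 0.72, edgeR adjusted p = 0.00682). Whether an introduced sequence adds to its counts is unknown. Jup, which encodes plakoglobin, a catenin shared with desmosomes, had 29.6 and 25.4 CPM at week 0 and 39.8 and 38.6 at week 7 (0.51, edgeR adjusted p = 0.0105). Without week 0 replicate 1, week 0 replicate 2 or week 7 replicate 1 the list had 2, 4 and 2 called genes, and Jup lost its call in the latter pair (edgeR adjusted p = 0.0618 and 0.0599).

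Of 30 other tight junction and polarity genes, 5 rose and 1 fell (median 0.19). Over all tested genes 13.8% were called (7.58% higher, 6.23% lower), and 21.9% of those averaging 10 CPM or more. The rising ones included Cgn, which encodes the ZO-1 partner cingulin, from 5.97 ± 0.345 to 10.2 ± 0.414 CPM (edgeR adjusted p = 0.0126), and Lsr, which encodes angulin-1 of tricellular junctions, from 128 ± 5.45 to 173 ± 11.8 CPM (edgeR adjusted p = 0.0262). Arhgef2, whose product binds cingulin at junctions, fell from 4.59 ± 0.0536 to 2.77 ± 0.228 CPM (edgeR adjusted p = 0.0484). With fewer libraries many of these calls were lost. Over the 13 alternatives the log2 fold changes stayed between 0.72 and 0.84 for Cgn, 0.36 and 0.50 for Lsr and -0.81 and -0.64 for Arhgef2. Arhgef2 was called in only 3 of these 13, so its call was also lost in settings that kept all 6 libraries. The list had 1, 0, 0 and 2 called genes without week 0 replicate 1, week 0 replicate 2, week 7 replicate 1 and week 7 replicate 2. Cgn was lost without week 0 replicate 2 or week 7 replicate 1 (edgeR adjusted p = 0.0648 and 0.0682), Lsr without any 1 of the 4 week 0 and week 7 libraries (0.0606 to 0.142) and Arhgef2 without any 1 of the 6 libraries (0.0849 to 0.190). Of 6 tested genes of other claudins, the claudin-domain gene Cldnd1 included, 1 fell. This was the endothelial Cldn5, from 11.005 ± 0.0652 to 7.14 ± 0.961 CPM (edgeR adjusted p = 0.0339). Its call was lost without any single library but week 7 replicate 2, and was kept in 7 of the 13 alternatives. Another 9 claudin or claudin-domain genes, Cldnd2 included, had 0 counts in every library.

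Among 11 genes of desmosomes and keratins 4 rose and 1 fell, with a median of 0.28, where 7.58% of all tested genes were called higher and 6.23% lower. The keratin genes in this list were Krt8 and Krt18. Krt8 was among those that rose (log2 fold change 0.29, edgeR adjusted p = 0.00978), and Krt18 was not called. Ppl, which encodes periplakin, went from 2.96 ± 0.317 up to 8.84 ± 0.858 CPM, 2.99-fold higher (edgeR adjusted p = 0.000626), and Pkp1, a plakophilin gene, had 0 counts in both week 0 libraries and 64 and 97 at week 7, at least 6.30-fold higher (edgeR adjusted p = 0.00341). Its bound uses a floor of 12 counts, or 3 read pairs, per library at week 0. Pkp4 fell from 85.8 ± 4.06 to 64.6 ± 1.09 CPM (edgeR adjusted p = 0.00381). Without week 0 replicate 2 or week 7 replicate 1 the list had 2 risen and 1 fallen gene, Ppl, Pkp1 and Pkp4 still called in each of the 13 alternatives. None of 7 tested connexin and pannexin genes beyond the members was called by edgeR, nor by DESeq2, and 1 had an unadjusted p under 0.05.

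Of 8 further cadherin genes 2 rose, both from 0 counts at week 0. The shares over all tested genes were 7.58% called higher and 6.23% lower. Cdh17, which encodes liver-intestine cadherin, had 186 and 305 counts at week 7, at least 19.2-fold higher (edgeR adjusted p = 0.000354), and 62 and 121 at week 2. Cdh16, known from kidney, had 76 and 31 counts at week 7 and 0 at week 2. Cdh16 passed the filter on low counts only through week 7, where it is high, so its call (edgeR adjusted p = 0.0289, DESeq2 adjusted p = 0.273) supports nothing, although the counts of higher genes above include it. It was lost without any 1 of the week 0 or week 7 libraries (edgeR adjusted p = 0.0697 to 0.242), while the call of Cdh17 was kept. Among 8 tested genes of transcription factors that repress cadherin genes, 1 fell. Zeb2, also expressed in macrophages and stellate cells, went from 13.9 ± 0.0669 to 8.36 ± 0.984 CPM (edgeR adjusted p = 0.0321). Its call was lost without any 1 of the week 0 or week 7 libraries and was kept in 8 of the 13 alternatives. Snai1, the best known repressor of Cdh1, had 0.701 and 0.249 CPM at week 0 and 0.445 and 0.469 at week 7.

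**Figure D5:**
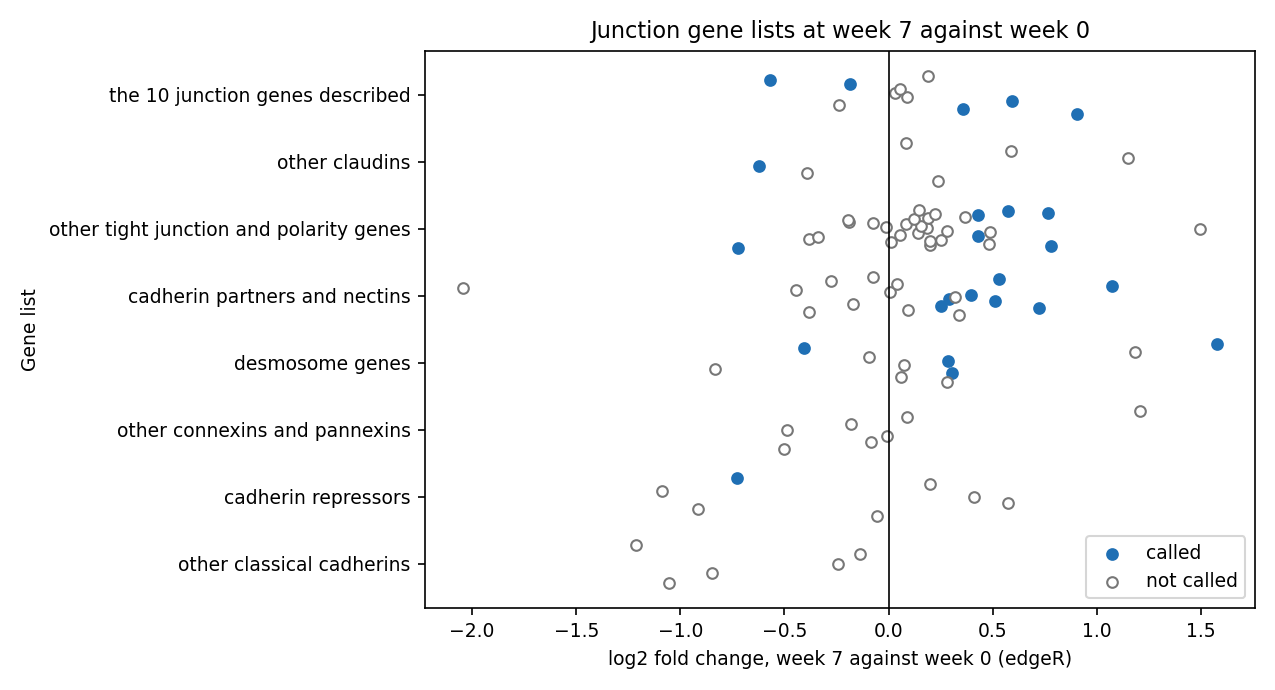
Log2 fold change at week 7 against week 0 for the 10 junction genes and for 83 of the 88 other tested junction genes, 1 point per gene, filled where edgeR's adjusted p was under 0.05; the 5 genes with 0 counts in a week are left out. Filled points of the cadherin partner list all lie to the right of 0, and the members spread to both sides.

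Junction genes are also expressed by the minor cell types of liver, so the markers of 5 such types were summed in each library. Counts of markers that rose or fell are for week 7 against week 0. There 7.58% of all tested genes were called higher and 6.23% lower. The 9 cholangiocyte markers (bile duct cells, which carry E-cadherin) summed to 19.3 and 19.8 CPM at week 0 and 19.6 and 19.5 at week 7, with Cldn4 at 0 counts in every library, and to 30.4 and 37.2 CPM at week 2. Of the 6 tested markers of this list 1 rose and 0 fell. Krt19 rose from 0.280 and 0.746 CPM at week 0 to 4.52 and 4.67 at week 7 (edgeR adjusted p = 0.00110). The other 5 were not called, among them Epcam, with 1.16 and 1.14 and then 0.445 and 0.587 CPM (edgeR adjusted p = 0.327). Most of the sum was Spp1, with 14.7 and 15.7 CPM at week 0 and 12.0 and 11.8 at week 7, not called (edgeR adjusted p = 0.0981). The level sum thus held a Krt19 that rose and an Spp1 whose lower value was not called. All 7 Kupffer cell markers fell, their sum from 400 and 391 to 290.1 and 284 CPM, and of 7 stellate cell and fibroblast markers 4 fell and 1 rose, their sum from 193 and 199 to 140.2 and 147 CPM. Of 8 endothelial markers 1 fell and 0 rose (266 and 281 to 244 and 251 CPM in sum), and of 6 lymphocyte markers none was called by edgeR, with 1 at an unadjusted p under 0.05 and sums between 6.15 and 8.94 CPM in the week 0 and week 7 libraries. At week 2 the sums of the Kupffer cell, stellate cell, endothelial and lymphocyte lists were above those of weeks 0 and 7. The part of these cell types in the changes of Cdh1, Cdh2, Cldn14, Gjb2 and Ocln was not tested.

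Genes that mark the position of hepatocytes between portal and central vein moved in the same libraries. Of 6 pericentral genes 5 rose at week 7 against week 0, and of 6 periportal genes 2 rose and 3 fell. Among all tested genes 7.58% were called higher and 6.23% lower. Of the members known from periportal hepatocytes Cdh1 rose and Gjb2 fell, and the pericentral Cldn2 was not called. Whether the changes of these marker genes bear on those of the members was not tested.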

How the data were processed

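Poly-A RNA of mouse liver cells was sequenced as paired ends from TruSeq V2 libraries, per the labels' protocols. The authors deposited a table of estimated counts by Ensembl gene, with no depth scaling. Bowtie 0.12.2 and mm8 appear, without a role, in the submitters' processing notes. Annotation and counting program were not given in the sources used here. All values were whole. Of the low values (4 to 43), 68.3% to 69.6% per library were a multiple of 4 or 1 above it, so 4 counts were taken as 1 read pair. Whether the table was made on the build of the gene positions, exon lengths and promoters printed here (GRCm38) is unsure. Counting errors and floors of the counts cover counting error only, since reads were not counted as molecules.

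Symbols came from GENCODE M21 (54409 genes matched). Genes were filtered with filterByExpr, scaled with TMM and fitted in edgeR 4.0.16 (R 4.3.3) with a robust quasi-likelihood model, 1 coefficient per week over all 6 libraries. Tests were 2-sided, and 5 members differed when all 3 weeks were tested at once (edgeR adjusted p under 0.05), as did 26.4% of all tested genes. Intervals of fold changes are 95%, unadjusted, and include the spread between libraries. The methods were checked on simulated data. Alternatives were median-of-ratios scaling, total counts only, no filter, DESeq2 1.42.0, counts divided by 4, a replicate block, a fit of only the 4 libraries compared and the omission of each library in turn. A fit with 1 library in a week assumes that it varies like the others. Figures used Python 3.11.15 and matplotlib 3.10.9. The members and lists were chosen with earlier results of these data known. Named beside the members were, per list, the 2 called genes with the smallest adjusted p in each direction at week 7 against week 0. Snai1, Krt19, Epcam, Krt8, Krt18, Cldn12, Cldnd1 and Cldnd2 were named after their values were seen.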

Additional observations from a re-analysis of the deposited data

How the results depend on the processing

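Leaving out 1 library at a time changed the number of called genes over the whole table from 2123 to between 1298 and 1856 at week 7 against week 0, from 2862 to between 1801 and 2752 at week 2 against week 0, and from 3040 to between 1842 and 2961 at week 7 against week 2. Fits with fewer libraries have fewer residual degrees of freedom. Called members then numbered 1 to 5 of 10 (5 with all libraries), 0 to 1 (0) and 2 to 4 (4), and 2 to 4 (5) when the 3 weeks were tested at once. With a replicate block 3 members were called at week 7 against week 0 instead of 5, Gjb2 and Ocln being lost (edgeR adjusted p = 0.0513 and 0.0717). The labels do not say that equal replicate numbers pair libraries, and the differences between replicates correlated between weeks at -0.04, 0.02 and -0.13 across 7368 genes. At week 2 against week 0, 1 member was called with total counts only, with no filter, with DESeq2 and with counts divided by 4, where 0 were in the main analysis. Differences that changed sign were all of genes that were not called. With total counts only, week 2 against week 0 became 0.070 for Cldn1, 0.0095 for Cldn2, 0.082 for Gjb2 and 0.067 for Tjp1. With single libraries left out the same comparison ranged from -0.046 to 0.0043 for Cldn1, -0.19 to 0.020 for Cldn2, -0.099 to 0.11 for Cldn14, -0.046 to 0.029 for Gjb2 and -0.084 to 0.037 for Tjp1. Cldn3 at week 7 against week 0 ranged from -0.071 to 0.13, and at week 7 against week 2 Gjb1 ranged from -0.025 to 0.0055 and Ocln from -0.24 to 0.13. Alternatives for the lists and the test over 3 weeks were added after seeing the data. The cause of these shifts was not tested. Of 390 repeats of member changes under alternatives, 350 kept direction and side of the threshold.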
